A study of Mus musculus with 4 samples.

Results

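Oxytocin and vasopressin are neuropeptides made as large precursors, and Oxt and Avp are the genes that encode them. These genes were followed together with Oxtr and Avpr1a, the genes of the oxytocin receptor and of the vasopressin receptor most used in the forebrain. The 4 genes were chosen by name, out of 31899 genes listed in all 4 libraries, and all 4 were listed and detected in every library. The libraries held nuclei of the microdissected posterior substantia innominata, a basal forebrain region, read by droplet sequencing of single nuclei. Of the 4 libraries, 2 came from wild-type male mice and 2 from wild-type female mice of the same age, all aged 8 weeks, and the series asks how neurons of this region differ by sex. The labels name no strain, treatment or transgene, and they do not say whether the libraries of one sex are separate animals. The p-values therefore measure only spread between libraries, which may be technical. In the tests of gene counts that spread is pooled in part, and in some tests nearly wholly, over all genes. A very small p-value is thus not a measure of how one gene varied between libraries.

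Oxytocin and vasopressin are best known from large neurosecretory neurons of the hypothalamus, which carry the peptides along their axons to the posterior pituitary and release them into the blood. The peptides are cut from precursors that also hold a carrier protein, neurophysin, by enzymes such as the prohormone convertases Pcsk1 and Pcsk2. In rodents, Avp is also made by smaller neurons of the extended amygdala, whose expression depends on sex steroids. Both receptors couple mainly to the G protein Gq, which drives phospholipase C and the release of stored calcium.

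Nuclei with 500 to 8000 genes and a mitochondrial share below 5% were kept, which left 8829, 8577, 10881 and 10581 nuclei in male 1, male 2, female 1 and female 2. A nucleus entered a class with at least 2 counts of unique molecular identifiers (UMIs) over a marker pair: Chat and Slc5a7 for cholinergic-like nuclei, Gad1 and Gad2 for GABAergic-like nuclei, Slc17a6 and Slc17a7 for glutamatergic-like nuclei, and a pair each for nuclei like astrocytes, oligodendrocytes, oligodendrocyte precursors (OPC) and microglia. They are called Chat, Gad, Slc17, astrocyte, oligodendrocyte, OPC and microglia nuclei here. Nuclei that met 2 or more classes were dropped. Of 27 markers not used in the classing, 21 were highest in their own class in all 4 libraries, including all 5 in each of the astrocyte, oligodendrocyte and microglia lists. The neuronal lists held less well: of the 4 glutamatergic markers only Tbr1 did so, and of the 2 GABAergic markers none. Slc32a1 was highest in Gad nuclei in the males alone. The cortical markers Neurod2 and Neurod6 were at 0 in the Slc17 nuclei of female 1.

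The male libraries were deeper, at 158132452 and 144035342 deposited UMIs, against 53098268 and 53679351 in the females. The median kept nucleus held 10406 and 10015 UMIs in the males, against 4192 and 3806 in the females. The classes took in 67.2% and 67.1% of male nuclei, against 47.2% and 48.3% of female nuclei. Depth, the set of barcodes, the software version in the file headers and the list of genes all changed together with sex, and they cannot be told apart from it. The males shared 23 barcodes and the females 35, whereas no barcode was shared between the sexes.

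Oxt and Avp lie next to each other on mouse chromosome 2 and face each other, which is the arrangement known from other mammals. In GENCODE (GRCm38), Oxt (ENSMUSG00000027301) runs on the plus strand of chr2:130576173-130577054, and Avp (ENSMUSG00000037727) on the minus strand of chr2:130580620-130582554, with 3565 bases between their ends. Each gene has 3 exons. Oxtr (ENSMUSG00000049112) lies on the minus strand of chr6:112473683-112489943, and Avpr1a (ENSMUSG00000020123) on the plus strand of chr10:122448499-122453452. The antisense gene Gm48877 overlaps Avpr1a, and whether the counting used strand is not stated in the files or labels, so reads of that pair may have been shared between them.

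The transcripts of the peptide genes share a run of 127 identical coding bases, which spans the end of exon 1 and the start of exon 2 in both and encodes part of neurophysin. It is shown because a read inside it could belong to either gene.
Shared Oxt and Avp coding run: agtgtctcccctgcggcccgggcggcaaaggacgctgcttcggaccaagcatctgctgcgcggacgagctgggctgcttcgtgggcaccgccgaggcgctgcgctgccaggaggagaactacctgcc
The run ends 255 bases before the 3′ end of the 537-base Oxt transcript and 307 bases before the end of the 577-base Avp transcript. Within the last 200 bases, where reads of a 3′ library mostly fall, the longest run the transcripts share is 8 bases.

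The 250 bases upstream of each peptide gene, from RefSeq (GRCm38.p6), are shown to set these neighbouring genes side by side. Capitals mark matches, on either strand, to TGACC (a site for nuclear receptors such as the estrogen receptor, read GGTCA on the other strand), CACGTG (an E-box) and ATAAA (the core of a TATA-like element).
Oxt promoter, chr2:130575919-130576168, plus strand: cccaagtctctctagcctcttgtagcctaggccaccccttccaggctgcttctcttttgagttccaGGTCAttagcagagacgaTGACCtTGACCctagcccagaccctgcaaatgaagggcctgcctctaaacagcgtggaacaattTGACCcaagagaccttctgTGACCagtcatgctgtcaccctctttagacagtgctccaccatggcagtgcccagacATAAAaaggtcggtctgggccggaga
Avp promoter, chr2:130582589-130582838, minus strand: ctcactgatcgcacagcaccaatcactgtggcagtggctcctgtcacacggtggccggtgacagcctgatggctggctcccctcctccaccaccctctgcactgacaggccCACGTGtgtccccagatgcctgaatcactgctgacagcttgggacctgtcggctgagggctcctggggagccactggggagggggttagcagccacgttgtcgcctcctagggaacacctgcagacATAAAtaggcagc
The Oxt window held 5 matches to TGACC, no E-box and 1 ATAAA, and the Avp window held no TGACC, 1 E-box and 1 ATAAA. Of 32851 promoter windows of the same length, 35.24% held at least 1 TGACC, 6.021% the E-box and 37.26% ATAAA. Only 14 windows, or 0.04262%, held 5 or more TGACC matches.

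Avp was the most abundant of the 4 genes, and its counts split into a low level spread over all classes and a small number of nuclei with very many. The kept nuclei held 1892 and 1831 Avp UMIs in the males, against 474 and 1547 in the females. Nuclei with at least 10 Avp UMIs, called bright here, numbered 18 and 16 in the males, against 8 and 12 in the females, out of 54 in all. They carried 44.9% and 42.8% of the Avp UMIs of the males, against 19.8% and 30.3% of those of the females.

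**Figure D1:**
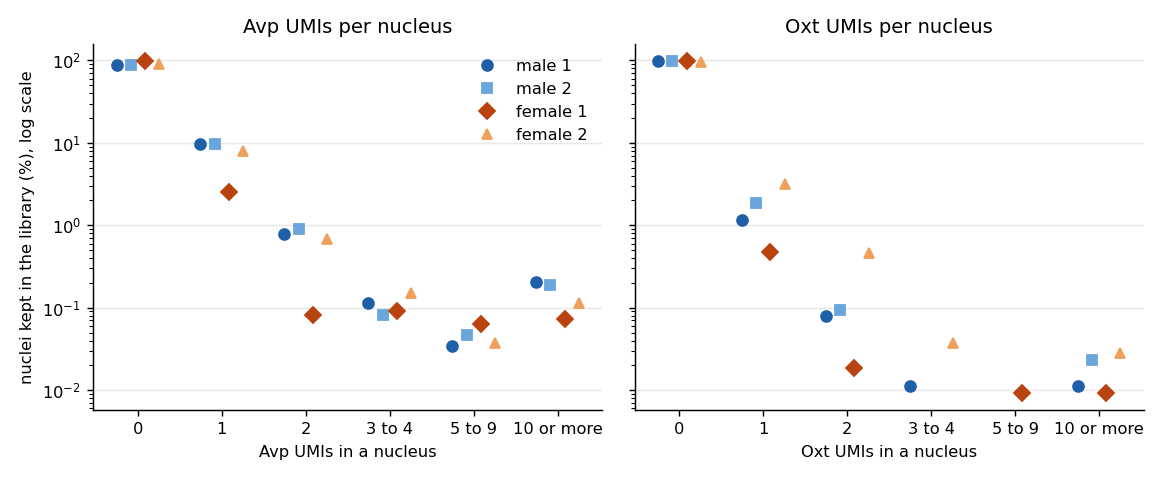
Share of kept nuclei (percent, log scale) by the number of Avp UMIs (left) or Oxt UMIs (right) in the nucleus; points are libraries, and a bin with no nucleus has no point. Most nuclei held 0 or 1 UMI, while 18, 16, 8 and 12 nuclei of male 1, male 2, female 1 and female 2 held 10 or more Avp UMIs.

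The bright nuclei of 3 libraries reached far higher counts than the rest of the tissue. Their median was 39 and 42.5 Avp UMIs in the males, against 11 and 30.5 in the females, and the highest counts were 115 and 115 in the males, against 15 and 111 in the females. The dimmest bright nucleus held 11 and 11 UMIs in the males, against 11 and 10 in the females, and the next nucleus below the threshold held 5 and 9 UMIs in the males, against 9 and 9 in the females. The threshold thus fell in a gap in male 1, and in the other libraries nuclei lay on both sides of it. Female 1 lacked the very bright nuclei of the other libraries.

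Nearly all bright nuclei held RNA of Sim1, and some other genes of hypothalamic neurosecretory neurons were higher in them too. Of the 54, 52 held at least 1 UMI of Sim1, a transcription factor needed for these neurons to form, against 2.44% of the other kept nuclei. Pooled over libraries, Sim1 stood at 627 counts per 1000000 UMIs (CPM) in the bright nuclei and 8.50 CPM in the others. Otp, another such factor, stood at 59.5 CPM in bright nuclei and 0.815 CPM in the others.

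Of the 12 genes of a neurosecretory list, 5 were higher in the bright nuclei in all 4 libraries: Sim1, Otp, Pou3f2, Arnt2 and Caprin2. The same count over all genes was not made. Otp rested on 2 UMIs in the bright nuclei of female 1 and 1 UMI in those of female 2. Caprin2, an RNA-binding protein known to bind Avp mRNA in the rat hypothalamus, stood at 1243, 1735, 501 and 215 CPM in bright nuclei of male 1, male 2, female 1 and female 2, against 25.7, 25.3, 19.8 and 16.1 CPM in the other nuclei of the same libraries. The transcription factor Pou3f2, which acts with the Sim1 partner Arnt2 in these neurons, stood at 116 CPM in bright nuclei and 10.2 CPM in the others. Pdyn, the dynorphin precursor that vasopressin neurons co-release, stood at 41.2 CPM in bright nuclei and 5.38 CPM in the others and was higher in 3 of 4 libraries. Creb3l1 was also higher in 3 of 4 libraries, Scg2 and Gal in 2 of 4, and Nos1, at 16.8 CPM in bright nuclei and 35.1 CPM in the others, in 1 of 4. Cartpt, the precursor of another hypothalamic peptide, was higher in the bright nuclei in no library. It gave 1 UMI in all the bright nuclei, too few to tell whether its level was lower.

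**Figure D2:**
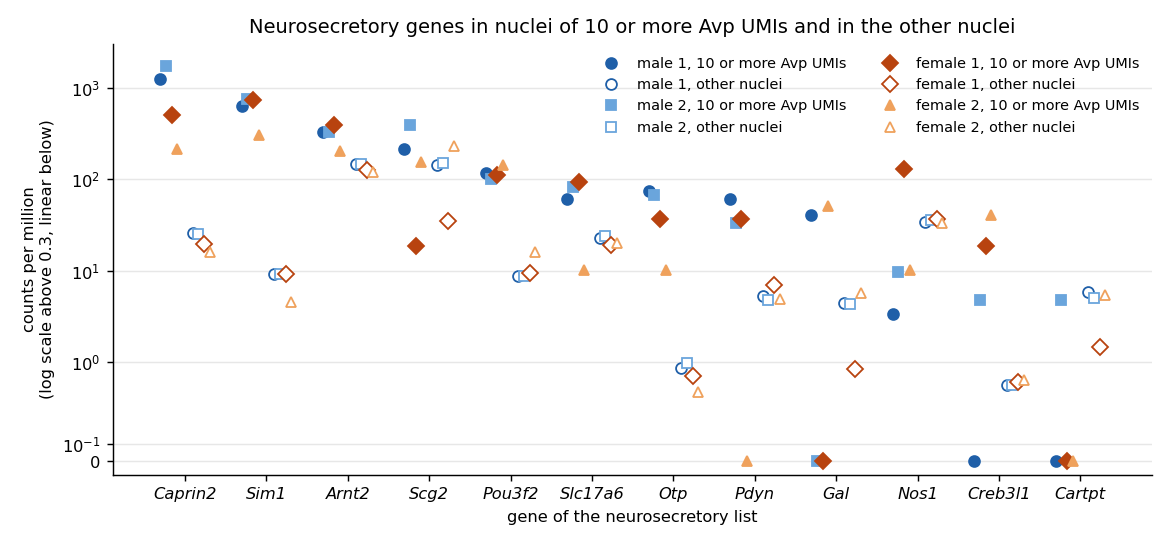
Level in CPM (log scale above 0.3, linear below) of the 12 genes of the neurosecretory list in nuclei of 10 or more Avp UMIs (filled) and in the other kept nuclei (open), by library. Caprin2, Sim1, Arnt2, Pou3f2 and Otp lie higher in the filled points in all 4 libraries.

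Some of the genes that process the precursor were higher in the bright nuclei than in the other kept nuclei, which include glia and nuclei of no class. The prohormone convertase Pcsk1 stood at 434 CPM in bright nuclei and 23.6 CPM in the others, and Pcsk2 at 406 CPM and 271 CPM, both higher in 4 of 4 libraries. Magel2, an imprinted gene whose loss disturbs the oxytocin system in mice, stood at 70.2 CPM in bright nuclei and 10.6 CPM in the others, again in 4 of 4 libraries. Pam, which amidates the end of both peptides, stood at 699 CPM in bright nuclei and 357 CPM in the others, in 3 of 4 libraries. The carboxypeptidase gene Cpe stood at 434 CPM in bright nuclei and 275 CPM in the others, in 2 of 4 libraries. Pcsk1, Pcsk2 and Pam were also higher in Slc17 nuclei than in the other classes, as given below. A higher level of these genes is thus not particular to the bright nuclei. Of the 18 genes of the processing and signalling list, Pcsk1, Pcsk2 and Magel2 were higher in all 4 libraries, and 3 others were higher in no library. This count was not made over all genes either.

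Markers of other vasopressin neurons and of other hypothalamic peptide neurons did not share that pattern. None of the 4 genes listed for the limbic vasopressin neurons was higher in the bright nuclei in all 4 libraries. Among them, the progesterone receptor gene Pgr stood at 21.4 CPM in bright nuclei and 42.7 CPM in the others and was higher in 1 of 4 libraries. None of 6 neighbouring peptide genes was higher in all 4 libraries, and Crh and Hcrt were at 0 in the bright nuclei. They stood at 3.10 and 0.339 CPM in the others, levels too low for a 0 in so few nuclei to be read as absence. Gad2 stood at 41.2 CPM in bright nuclei and 193 CPM in the others, and Slc17a6 at 62.6 CPM and 22.3 CPM. These are descriptions of nuclei chosen by their Avp count, with no test.

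The bright nuclei were spread over the classes. Of the 54, 27 met no class, 11 were Slc17 nuclei, 8 Gad, 3 oligodendrocyte, 1 astrocyte and 1 OPC, and 3 met several classes. None was a Chat or microglia nucleus. Doublets were not called with a tool, and 2 of the 54 were among the 5% of nuclei with the most UMIs of their library.

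Nuclei chosen by Sim1 alone held more Avp on average, mostly in the few of them that were bright. Nuclei with at least 5 Sim1 UMIs numbered 94 and 77 in the males, against 23 and 10 in the females. They averaged 8.83 and 7.81 Avp UMIs per nucleus in the males, against 3.78 and 3.30 in the females, and the other nuclei of the same libraries averaged 0.122, 0.145, 0.0356 and 0.143. Bright nuclei made up 18.1% and 15.6% of the Sim1 nuclei of the males, against 17.4% and 10.0% in the females. Without the bright nuclei, the Sim1 nuclei averaged 0.169 and 0.231 Avp UMIs in the males, against 2.05 and 0.222 in the females, and the other nuclei 0.118 and 0.121 in the males, against 0.0314 and 0.102 in the females.

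Oxt followed the same split at a lower level. The kept nuclei held 131 and 250 Oxt UMIs in the males, against 85 and 567 in the females, so that female 2 held more Oxt than any other library. Only 7 nuclei held 10 or more Oxt UMIs, namely 1 and 2 in the males, against 1 and 3 in the females, with a highest count of 11 and 53 in the males, against 22 and 81 in the females. The next nuclei below held 3 and 2 UMIs in the males, against 8 and 3 in the females. All 7 held Sim1 UMIs, 5 met no class, 1 was a Gad nucleus and 1 an Slc17 nucleus.

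No nucleus was bright for both Oxt and Avp. With only 7 nuclei bright for Oxt, that count cannot tell whether the genes avoid each other. Of the 54 nuclei bright for Avp, 51 held 0 Oxt UMIs, and the highest held 2. Of the 7 nuclei bright for Oxt, 5 held 0 Avp UMIs, and the highest held 6. In the hypothalamus, most magnocellular neurons are known to make mainly one of these peptides.

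Outside the bright nuclei, Avp UMIs were found in all 7 classes of every library, neurons and glia alike. In Gad nuclei it stood at 12.5 and 12.2 UMIs per 100 nuclei in the males, against 3.76 and 11.9 in the females. In all 4 glial classes together it stood at 10.1 and 10.5 per 100 nuclei in the males, against 2.61 and 9.51 in the females. Female 1 was the lowest library in both. Its classes also spread most, between 0.735 per 100 nuclei in Chat nuclei, from 1 UMI, and 6.99 in Slc17 nuclei. All neurons together stood at 12.5 and 12.2 per 100 nuclei in the males, against 3.77 and 11.7 in the females, somewhat above glia in each library, while the median neuron held 12556, 12175, 5929 and 6222.5 UMIs in male 1, male 2, female 1 and female 2, and the median glial nucleus 2527.5, 2423.5, 1975 and 1642.

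The share of nuclei with an Avp UMI was likewise somewhat higher in neurons than in glia. Bright nuclei included, it was 11.2% and 10.8% of neurons in the males, against 3.15% and 10.5% in the females. In glia, which are not known to make vasopressin, it was 9.49% and 10.2% in the males, against 2.61% and 8.10% in the females. Nuclei of at least 2000 UMIs were also thinned to 2000, which left out 659 and 688 kept nuclei in the males, against 2283 and 2932 in the females. The median glial nucleus of both females lay below that depth, so most of their glia were left out. Among the thinned nuclei, the share was lower in neurons (2.15%, 1.72%, 1.30% and 3.78% in male 1, male 2, female 1 and female 2) than in glia (5.5%, 6.60%, 2.27% and 5.95%). For Oxt, the Gad share was 1.13% and 2.07% in the males, against 0.648% and 3.77% in the females, and the glial share 0.892% and 1.78% in the males, against 0.283% and 3.33% in the females. No expression in a class is read from these shares of nuclei with an Avp or Oxt UMI.

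**Figure D3:**
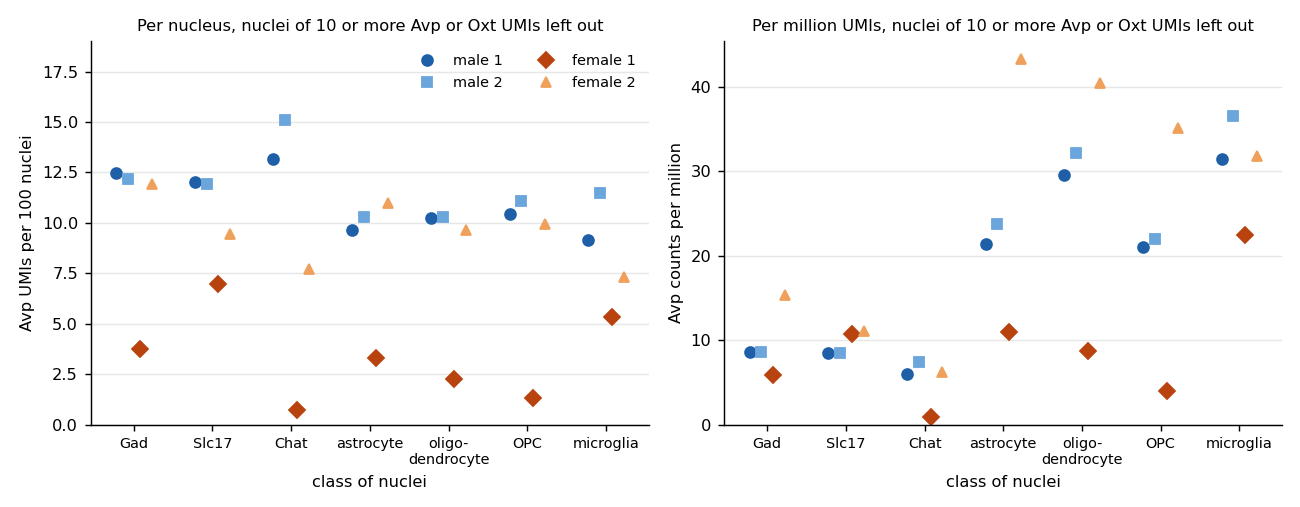
Avp in 7 classes without the nuclei of 10 or more Avp or Oxt UMIs, as UMIs per 100 nuclei (left) and as CPM (right); points are libraries. Per nucleus, the neuronal and glial classes of both males lie between 9.15 and 15.1, and those of female 1 lie lower and spread more, whereas in CPM most glial points lie above the neuronal ones.

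Counts per nucleus followed depth to different extents for the 4 genes. The nuclei of each library were ranked by depth and cut into 5 bins of equal size. Between the shallowest and the deepest bin, the median UMI count rose 10.7-fold and 10.8-fold in the males, against 5.82-fold and 8.10-fold in the females. Avp UMIs per nucleus, bright nuclei left out, rose only 1.52-fold and 1.46-fold in the males, against 1.94-fold and 1.43-fold in the females. Oxtr UMIs per nucleus rose 7.0-fold and 9.25-fold in the males, against 10.3-fold and 15.4-fold in the females, less than depth in the males and more than depth in the females. Oxt UMIs rose 2.0-fold and 2.33-fold in the males, against 3.0-fold and 1.54-fold in the females, less than depth in every library. Avpr1a UMIs, which were few, rose 6.5-fold and 22-fold in the males, against 3.5-fold and 3.51-fold in the females.

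The ratio of the peptides outside the bright nuclei differed between libraries more than between neurons and glia of a library. Outside the bright nuclei, Oxt made up 8.89% and 14.1% of the Oxt and Avp UMIs of neurons in the males, against 14.2% and 27.4% in the females. In glia it made up 8.14% and 15% in the males, against 9.80% and 28.8% in the females. The exact 95% intervals of neurons and glia overlapped in every library, while that of all nuclei in female 2 (26.9% to 31.5%) lay above those of the other 3 libraries, whose highest bound was 17.8%. Intervals here cover counting error only.

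Oxtr was rare, and its nuclei lay both inside and outside the Gad class. It gave 110 and 99 UMIs in the males, against 72 and 83 in the females, in 108 and 96 nuclei of the males, against 71 and 78 of the females, and no nucleus held more than 2. Of these 353 nuclei, 180 were Gad nuclei, or 56.5% and 63.5% in the males, against 32.4% and 44.9% in the females. Gad nuclei were 3909 of 8829 and 3819 of 8577 kept nuclei in the males, against 3086 of 10881 and 2735 of 10581 in the females. The share of Gad nuclei with an Oxtr UMI was 1.56% and 1.60% in the males, against 0.745% and 1.28% in the females. In glia it was 0.382% and 0.274% in the males, against 0.113% and 0.187% in the females, so the Gad share lay above the glial one in every library. The median Gad nucleus was also deeper, at 12483, 12020, 5867.5 and 6163 UMIs in male 1, male 2, female 1 and female 2, against 2527.5, 2423.5, 1975 and 1642 in glia. Among nuclei of at least 2000 UMIs, thinned to 2000, the Gad share was 0.154% and 0.314% in the males, against 0.198% and 0.185% in the females. The glial share was 0.186% and 0.105% in the males, against 0 and 0.124% in the females, where most glia were too shallow to be thinned. These thinned shares rest on 5 to 12 Gad nuclei a library, and in male 1 the Gad share lay below the glial one.

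As a level in CPM, Oxtr stood at 1.11 and 1.14 CPM in Gad nuclei of the male libraries, against 1.17 and 1.78 CPM in the females. Glia together stood at 1.02 and 1.16 CPM in the male libraries, against 0.422 and 0.763 CPM in the females, from 6 and 6 UMIs in the males, against 2 and 4 in the females. The males thus gave similar levels in Gad nuclei and glia, and the females a higher level in Gad nuclei. Nuclei that met no class held 10 and 8 Oxtr UMIs in the males, against 36 and 27 in the females, and in female 1 that was more than the 23 UMIs of the Gad nuclei. Slc17 nuclei held 5 and 3 Oxtr UMIs in the males, against 0 and 0 in the females, where 0 of 145 and 0 of 159 nuclei allow shares of up to 2.07% and 1.89%. Microglia nuclei held 1 and 3 UMIs in the males, against 0 and 2 in the females. Chat nuclei held 1 and 1 UMI in the males, against 2 and 0 in the females. At these counts the order of the other classes could not be told.

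**Figure D4:**
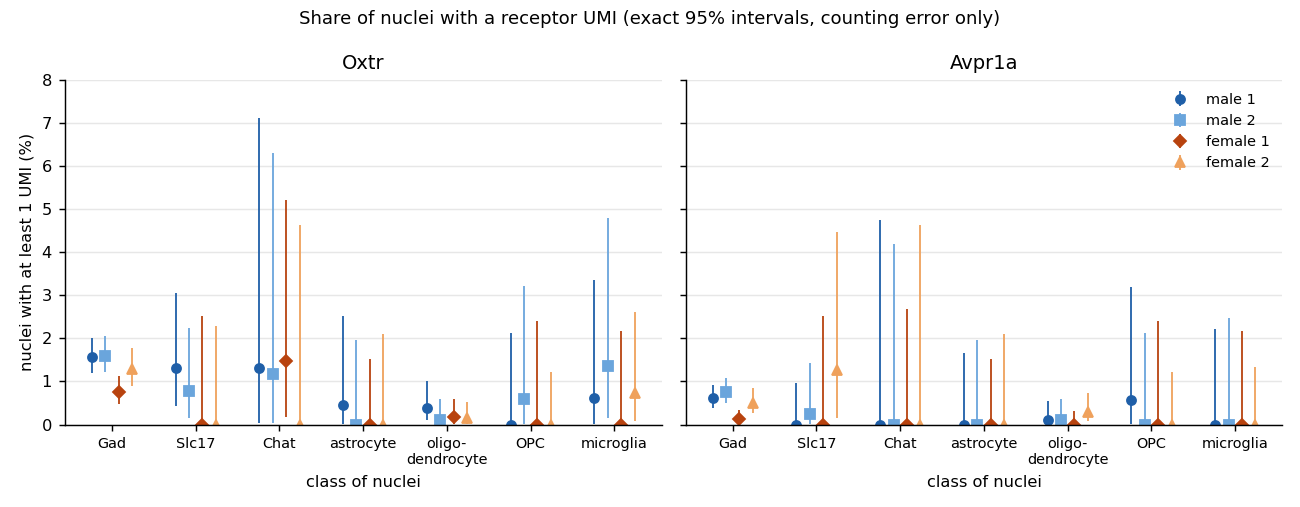
Percent of nuclei with at least 1 Oxtr UMI (left) or Avpr1a UMI (right) in 7 classes; points are libraries, and bars are exact 95% intervals that cover counting error only. Oxtr reached 1.56%, 1.60%, 0.745% and 1.28% of Gad nuclei in male 1, male 2, female 1 and female 2, and Avpr1a lay lower, while the small classes have wide intervals.

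Avpr1a was rarer still, with 37 and 46 UMIs in the males, against 18 and 33 in the females, in 127 nuclei in all. Of these, 71 were Gad nuclei, or 66.7% and 65.9% in the males, against 26.7% and 43.8% in the females. In female 1 these were 4 of 15 nuclei, beside 3086 Gad nuclei among 10881 kept. The Gad share with a UMI was 0.614% and 0.759% in the males, against 0.130% and 0.512% in the females, and the glial share was 0.127% and 0.0686% in the males, against 0 and 0.187% in the females. The Gad level was 0.440 and 0.554 CPM in the male libraries, against 0.203 and 0.656 CPM in the females.

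Avpr1a had 0 UMIs in Chat, astrocyte and microglia nuclei of all 4 libraries. In Chat nuclei, a count of 0 allows shares of up to 3.95% and 3.49% in the males, against 2.21% and 3.85% in the females. Slc17 nuclei held 0 and 1 UMIs in the males, against 0 and 2 in the females. The antisense gene Gm48877 gave 171 and 162 UMIs in the males, against 55 and 56 in the females, more than Avpr1a itself in every library.

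A UMI of both receptors was held by 1 nucleus, in male 2. With so few receptor nuclei, that count says nothing on whether the receptors share cells. At these depths the absence of a UMI does not show that a nucleus lacks the receptor. Of the other vasopressin receptors, the pituitary receptor gene Avpr1b gave 1 UMI in all, in female 2, and the kidney receptor gene Avpr2 gave 3 and 4 UMIs in the males, against 6 and 4 in the females.

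Within the Gad nuclei, the genes that marked receptor nuclei were described without a test and were chosen after their values were seen. Sema3a, a guidance cue, stood at 397, 211, 0 and 226 CPM in the Avpr1a nuclei of male 1, male 2, female 1 and female 2, against 93.6, 92.2, 97.3 and 88.2 CPM in the other Gad nuclei. It was higher in 3 libraries, and the value of 0 came from the 4 Avpr1a nuclei of female 1. Vdr, the vitamin D receptor gene, stood at 97.0, 15.1, 0 and 9.41 CPM in Avpr1a nuclei of the same libraries, against 2.42, 3.43, 4.41 and 4.43 CPM in the other Gad nuclei. In female 2 that rested on 1 UMI. Prkd1, a kinase gene, stood at 123, 170, 153 and 133 CPM in Oxtr nuclei, against 95.3, 92.6, 111 and 73.9 CPM in the other Gad nuclei, higher in all 4 libraries.

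The class contrasts asked in which class each gene was highest, with the UMIs of a class and of all other classed nuclei summed within each library and compared by edgeR's quasi-likelihood test with the library as a block. Oxtr was higher in Gad nuclei than in the others, by 0.83 on the log2 scale (SE 0.304, 95% interval 0.14 to 1.52, adjusted p = 0.0447), where 54% of all 16846 genes tested were called in either direction. It was no longer called with DESeq2 (adjusted p = 0.0958), without the 5% of nuclei with the most UMIs (0.0573), or without male 2 (0.0826), female 1 (0.0790) or female 2 (0.161). In the other 6 classes Oxtr was not called, with differences of -1.89 to 1.11 on the log2 scale. Avpr1a was too low to be tested in any class.

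Avp was called in all 7 class contrasts. In Slc17 nuclei it stood at 36.9 and 61.7 CPM in the male libraries, against 22.3 and 11.1 CPM in the females, higher than in the other classes by 1.59 (SE 0.257, adjusted p = 4.6e-05; 20.2% of genes called). Bright nuclei held 153 of 198 Avp UMIs of the Slc17 nuclei of male 1, 292 of 338 in male 2, 11 of 21 in female 1 and none of 15 in female 2. Without the bright nuclei the difference was -0.21 (adjusted p = 0.456), and with DESeq2 it was 1.21 (0.350).

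Bright nuclei held 173 of 661 Avp UMIs of the Gad nuclei of male 1, 12 of 476 in male 2, none of 116 in female 1 and 236 of 562 in female 2. In Gad nuclei, Avp stood at 11.6 and 8.79 CPM in the male libraries, against 5.88 and 26.3 CPM in the females, lower than in the other classes by edgeR (log2 difference -1.30, SE 0.267, adjusted p = 0.00285). Chat nuclei were lower as well (-1.47, SE 0.248, adjusted p = 5.8e-05; 25.6% called). The glial classes were higher: 1.44 in astrocyte nuclei (SE 0.325, adjusted p = 0.00119; 45.5% called), 1.04 in oligodendrocyte nuclei (SE 0.136, 7.1e-05; 56.8%), 0.63 in OPC nuclei (SE 0.226, 0.0311; 35.4%) and 0.64 in microglia nuclei (SE 0.244, 0.0395; 39.2%). In astrocyte nuclei of male 1, a single nucleus held 90 of the 111 Avp UMIs, and without male 1 the difference was 0.59 (adjusted p = 0.0918). OPC nuclei lost the call without male 2 (0.0574) or female 1 (0.191), and microglia nuclei without male 1 (0.0967), male 2 (0.189) or female 1 (0.124). These differences are relative to all UMIs of a class, and glial nuclei held fewer UMIs than neurons. Per nucleus, Avp outside the bright nuclei lay somewhat lower in glia than in neurons in every library. No expression in a glial class is read from the differences, and a contribution of RNA from outside the nuclei was not tested.

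Oxt took the same directions with fewer calls. It was lower in Gad nuclei (-0.81, SE 0.231, adjusted p = 0.0150 by edgeR) and higher in astrocyte nuclei (1.49, SE 0.448, adjusted p = 0.0107). The Gad nuclei held 0.809 and 1.51 Oxt CPM in the male libraries, against 1.01 and 9.37 CPM in the females, and the astrocyte nuclei held 5.0 and 7.5 CPM in the male libraries, against 2.75 and 20.5 CPM in the females, from 2 to 9 UMIs. In the Gad nuclei of female 2, 1 nucleus held 81 of the 200 Oxt UMIs. Oxt was not called in the other 5 classes. Before thinning, the share of nuclei with an Oxt UMI was lower in glia than in Gad nuclei in every library, as given above. No expression in astrocyte nuclei is read from the difference in CPM. With nuclei classed after thinning, the Gad difference was 0.21 (adjusted p = 0.673).

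The genes that process the peptides and carry the receptor signal differed between neuron classes in ways of their own. In Slc17 nuclei, 4 of the 16 tested genes of that list were higher and 3 lower, with a list median of 0.06 on the log2 scale beside -0.000866 over all genes. Those with the smallest p were Pcsk1 (1.56, SE 0.0792), Pcsk2 (1.01, SE 0.0711), Pam (0.51, SE 0.0585) and Plcb4, a phospholipase C (0.36, SE 0.0664). In Gad nuclei, 6 of 16 were higher and 4 lower, with a list median of -0.09 beside 0.00913. There the oxytocin-related ectoenzyme gene Cd38 was lower (-3.15, SE 0.196), the phospholipase C genes Plcb1 and Plcb3 were higher (0.76, SE 0.0670) and lower (-2.07, SE 0.203), and the calcium channel gene Itpr1 was higher (0.78, SE 0.0871). The 7 of 16 in Slc17 nuclei stand beside 20.2% of all genes called, and the 10 of 16 in Gad nuclei beside 54%. Of 5 tested genes of neighbouring hypothalamic peptides, 3 were higher and 1 lower in Slc17 nuclei, and 2 were higher in Gad nuclei.

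Sim1 and Otp were higher in Slc17 nuclei and lower in Gad nuclei, while the neurosecretory list as a whole was mixed. In Slc17 nuclei, 5 of 11 tested were higher and 2 lower, with a list median of -0.04 on the log2 scale beside -0.000866 over all genes. One of the 5, Slc17a6, defines the class and is no finding, and the others include Sim1 (4.58, SE 0.145), Otp (4.14, SE 0.354) and Nos1 (1.98, SE 0.0823). In Gad nuclei, 1 of 12 was higher and 7 lower, with a list median of -0.52 beside 0.00913, including Sim1 (-3.31, SE 0.334) and Otp (-3.24, SE 0.404). All 4 genes listed for limbic vasopressin neurons were higher in Gad nuclei, by 0.29 for the estrogen receptor gene Esr1 up to 1.57 for the aromatase gene Cyp19a1, and 1 was higher and 2 were lower in Slc17 nuclei. Over all genes, 26.9% were called higher and 27.1% lower in Gad nuclei, and 9.44% higher and 10.8% lower in Slc17 nuclei. The lists were not tested against these shares.

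The Slc17 nuclei were split by transporter, Slc17a6 being that of most subcortical glutamate neurons and Slc17a7 that of cortical ones. All bright Avp nuclei of the class had Slc17a6 alone. Nuclei with Slc17a6 alone held 193 and 333 Avp UMIs in the males, against 21 and 11 in the females, out of 328 and 344 nuclei in the males, against 138 and 128 in the females. Nuclei with Slc17a7 alone held 5 and 2 Avp UMIs in the males, against 0 and 3 in the females, out of 36 and 27 nuclei in the males, against 2 and 22 in the females. The Slc17a6 nuclei were higher by 2.53 (SE 0.433, adjusted p = 2.0e-07 by edgeR), where 11% of 7799 genes were called. The call was lost with DESeq2 (1.98, adjusted p = 0.138) and without male 2 (1.63, adjusted p = 0.116). Without bright nuclei no test could be made, and the Slc17a6 nuclei held 12.4 and 12.1 Avp UMIs per 100 nuclei in the males, against 7.35 and 8.59 in the females, and the Slc17a7 nuclei 13.9 and 7.41 in the males, against 0 and 13.6 in the females. The 2 Slc17a7 nuclei of female 1 are too few to give a level.

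The Gad nuclei were split by Drd1, Drd2, Tshz1, Moxd1 and Sst, and each subclass was set against the Gad nuclei that met none of these thresholds. No subclass differed in Oxt or Oxtr by edgeR, with Oxtr differences of -1.07 to 0.23 on the log2 scale and adjusted p of 0.687 to 0.908. The nuclei with no marker held 25 and 26 Avpr1a UMIs in the males, against 4 and 12 in the females, and the 5 subclasses together held 5 UMIs. Those nuclei were also most of the class, at 2981 of 3909 and 2977 of 3819 in the males, against 2801 of 3086 and 2447 of 2735 in the females. The subclasses were small in the females, down to 5 Sst nuclei in female 1. Moxd1 nuclei held no Avpr1a UMI in any library, which at 202, 193, 58 and 53 nuclei in male 1, male 2, female 1 and female 2 allows shares of up to 1.49%, 1.55%, 5.17% and 5.66%. None of these counts was large enough for a test.

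Avp was called in 3 of the 5 subclasses. It was higher in Tshz1 nuclei (0.86, SE 0.249, adjusted p = 0.0236; 9.77% of genes called) and lower in Drd1 nuclei (-0.85, SE 0.265, 0.0228; 6.97%) and Drd2 nuclei (-0.73, SE 0.231, 0.0312; 14.5%). It was not called in Moxd1 nuclei (-0.63, SE 0.238, 0.0726; 13% called) or Sst nuclei (-0.28, SE 0.380, 0.898; 2.4% called). In the Tshz1 nuclei of male 1, 1 nucleus held 115 of 147 Avp UMIs. The Tshz1 difference was -0.21 without male 1 and -0.28 without the bright nuclei, and the call was lost with DESeq2 (0.26, adjusted p = 0.938) and without female 1 (0.0652). The Drd1 call was lost with DESeq2 (adjusted p = 0.389) and without the bright nuclei (0.241), male 2 (0.146) or female 2 (0.415). The Drd2 call was lost with DESeq2 (0.133) and without the bright nuclei (0.152), male 1 (0.209), female 1 (0.0534) or female 2 (0.167). Of the processing and signalling list, 4 genes were higher and 1 lower in Drd1 nuclei, 5 and 4 in Drd2, 1 and 3 in Tshz1, 3 and 3 in Moxd1 nuclei, and 3 were higher in Sst nuclei.

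Males and females were compared within each class by edgeR, with the UMIs of each library summed. Over 12 classes and subclasses, 20 tests of the 4 genes could be made, of which 0 were called at an adjusted p below 0.05, by edgeR or by DESeq2, and 4 had an unadjusted p below 0.05 by edgeR. Few genes of any kind were called by edgeR, 0.00545% of the 18345 tested in Gad nuclei and 0.0631% of 12675 in Slc17 nuclei. These are 1 and 8 genes, against 880 and 174 by DESeq2, and up to 11102 and 2414 by edgeR without female 2. In the other classes, 0.0498% of genes were called in Chat nuclei, 0.0555% in astrocyte, 0.023% in oligodendrocyte, 0.095% in OPC and 0.0503% in microglia nuclei. In the subclasses the shares were 0.0629% in Drd2, 0.0446% in Tshz1, 0.294% in Moxd1 nuclei, 0% in Gad nuclei with no marker, where 2796 genes had an unadjusted p below 0.05, and 0.0654% in nuclei with Slc17a6 alone.

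In Gad nuclei, neither receptor differed between the sexes by more than the spread of the libraries. Oxtr differed by -0.31 (log2, male over female, 95% interval -1.23 to 0.61, adjusted p = 0.685) and Avpr1a by 0.28 (-1.34 to 1.91, adjusted p = 0.848). These intervals leave room for differences in either direction. The direction of Avpr1a turned without female 1, at -0.18.

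The peptides varied widely between the 2 females. In Gad nuclei, Avp differed by -0.55 (SE 0.711, adjusted p = 0.744) and Oxt by -2.04 (SE 1.09, adjusted p = 0.429). Female 2 was the highest library for both peptides and female 1 was the lowest for Avp, so the male values lay between the female ones for Avp. In the Gad nuclei of female 2, 4 bright nuclei held 236 of 562 Avp UMIs, and 1 nucleus held 81 of 200 Oxt UMIs. Those of female 1 had no bright nucleus, and in the males bright nuclei held 173 of 661 and 12 of 476 Avp UMIs and no Oxt UMI. Without female 2, the differences turned to 0.80 for Avp (adjusted p = 8.8e-05) and 0.19 for Oxt (0.713). Without female 1 they were -1.14 (9.4e-31) and -2.80 (1.6e-46). Where 1 library is left in a sex, it is assumed to vary like the libraries of the other sex, so these small p-values rest on the spread between the 2 males, pooled in part over genes.

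**Figure D5:**
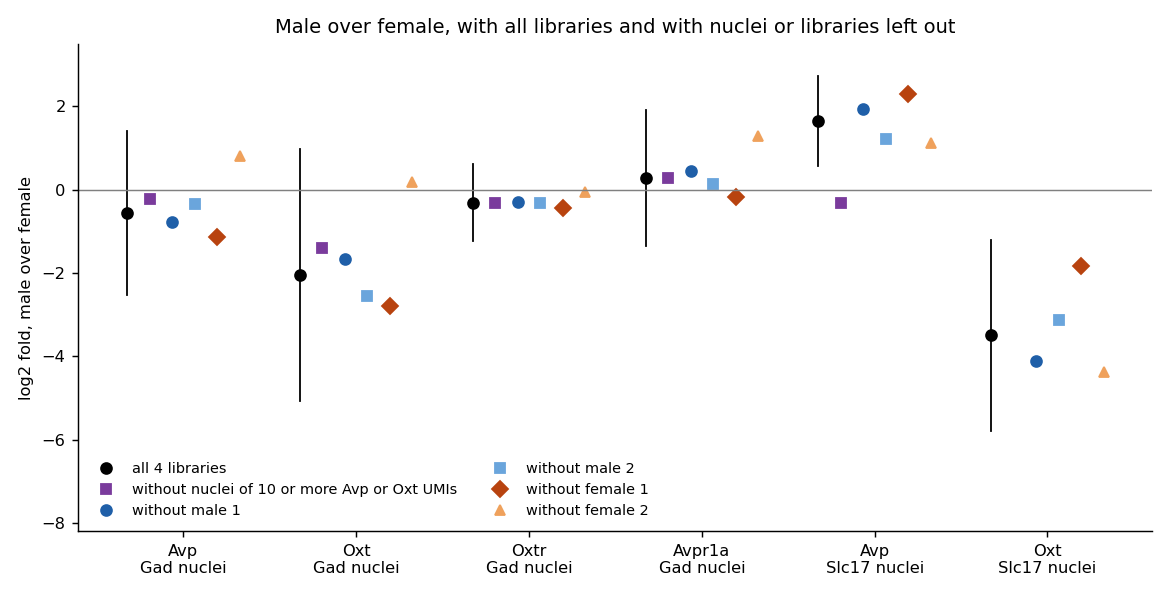
Male over female difference (log2) of the 4 genes in Gad nuclei and of Avp and Oxt in Slc17 nuclei, with the 95% interval for all 4 libraries, and without the nuclei of 10 or more Avp or Oxt UMIs or without 1 library. Avp in Slc17 nuclei lay at 1.65 with all nuclei and at -0.33 without those nuclei.

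In Slc17 nuclei, Avp was 36.9 and 61.7 CPM in the male libraries, against 22.3 and 11.1 CPM in the females. The difference of 1.65 (SE 0.434, 95% interval 0.57 to 2.73) was not called (adjusted p = 0.265 by edgeR). Of these Slc17 nuclei, 5 and 5 in the males, against 1 and 0 in the females, were bright, and the difference was -0.33 without them. It passed the threshold without female 1 (2.29, adjusted p = 6.9e-13) or female 2 (1.13, 0.000825). Oxt was 1.49 and 0.730 CPM in the male libraries, against 23.3 and 4.45 CPM in the females, a difference of -3.49 (SE 0.923, 95% interval -5.78 to -1.19) that was not called either (adjusted p = 0.265). All 22 Oxt UMIs of the Slc17 nuclei of female 1 came from 1 nucleus. Without female 2 the Oxt difference was -4.37 (adjusted p = 1.4e-11), and without female 1 it was -1.83 (0.196).

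The male over female difference of Avp was larger in Slc17 than in Gad nuclei by 2.41 on the log2 scale (edgeR interaction term, SE 0.286, adjusted p = 8.5e-11), where 0.79% of 17091 genes were called. That adjusted p rests on spread pooled over genes, not on the spread of Avp alone. The interaction term was 0.041 (adjusted p = 0.999 by edgeR) without the bright nuclei. Of these, Slc17 nuclei held 5 and 5 in the males, against 1 and 0 in the females, and Gad nuclei 3 and 1 in the males, against 0 and 4 in the females. Without female 2 it was 0.45 (0.791). For Oxt the term was -1.36 (SE 0.678, adjusted p = 0.676).

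In the other 10 classes and subclasses, Avp differed by -0.74 to 1.82 in 9 tests (adjusted p of 0.255 to 0.953) and Oxt by -3.42 to -1.13 in 3 tests (0.255 to 0.804). Gad nuclei with no marker gave -0.42 for Oxtr (adjusted p = 0.618) and 0.58 for Avpr1a (0.655). No gene of the processing and signalling list was called in Gad nuclei (0 of 16) or Slc17 nuclei (0 of 14) by edgeR. Unadjusted p-values below 0.05 were found for Cd38 (-1.48) and the arrestin gene Arrb2 (-1.07) in Gad nuclei and for Pcsk1 (0.43) in Slc17 nuclei, or 2 of 16 and 1 of 14. Over all genes, 2932 of 18345 in Gad nuclei and 1699 of 12675 in Slc17 nuclei had such a p. The neurosecretory, neighbouring peptide and limbic lists gave 0 calls by edgeR in these classes as well. Their genes with an unadjusted p below 0.05 were Caprin2 (0.63), Arnt2 (0.33), Cyp19a1 (1.82) and Agrp (-1.98) in Gad nuclei, and Caprin2 (1.33), Agrp (-2.18) and the classing gene Slc17a6 (-0.55) in Slc17 nuclei.

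The number of bright Avp nuclei per 10000 kept nuclei was 20.4 and 18.7 in the males, against 7.35 and 11.3 in the females. The exact 95% intervals were 12.1 to 32.2 and 10.7 to 30.3 in the males, against 3.17 to 14.5 and 5.86 to 19.8 in the females. The means differed by 10.2 per 10000, and an exact two-sided permutation test gave p = 0.333, the smallest that 2 against 2 libraries allow. The threshold of 10 UMIs was the same at every depth, and a role of depth in this difference was not tested. With a threshold of at least 3 UMIs that also make up at least 0.1% of the UMIs of the nucleus, there were 17 and 15 such nuclei in the males, against 19 and 16 in the females, or 19.3 and 17.5 per 10000 in the males, against 17.5 and 15.1 in the females. That threshold asks fewer UMIs of a shallow nucleus, so it is not free of depth either.

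The genes whose level followed each of the 4 most closely over 13 classes and subclasses, by Pearson's r of the mean log2(CPM + 1) among 10469 genes, are given as a description, since the classes share libraries, depth and background. For Avp they were Atp5j (0.918), Tcf7l2 (0.911), Rpl28 (0.899), Fuca1 (0.896) and Cox15 (0.893), and for Oxt Smarcd2 (0.938), Atp5j (0.921), Tcf7l2 (0.919), Aldoc (0.919) and Msmo1 (0.919). For Oxtr they were Rap1gds1 (0.886), Eif4b (0.846), Hprt (0.844), Qrich1 (0.832) and Plekhm3 (0.829). For Avpr1a they were Ctnnal1 (0.730), Gm16189 (0.723), Glra1 (0.712), Gm45194 (0.703) and Adgrg2 (0.702). Avpr1a averaged 0.215 CPM over these classes and Oxtr 1.42 CPM, so their profiles rest on few UMIs.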

How the data were processed

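The authors deposited UMI counts per gene and nucleus as filtered matrices, with no normalization. The submitters' processing notes name Cell Ranger 6.0.1, Seurat 5 and mm10, whereas the matrix headers give Cell Ranger 9.0.1 and 9.0.1 for the males, against 7.0.0 and 7.2.0 for the females, and the labels' protocols name both v2 and v3 reagents. The libraries list 33696 and 33696 genes in the males, against 55357 and 32285 in the females; the 31899 shared genes were used, which held at least 97.74% of the UMIs. The filters on nuclei and the classing by markers are given with the results. No doublet caller was run: nuclei that met several classes were dropped, and an alternative left out the 5% with the most UMIs.

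UMIs were summed per library and class and tested with edgeR 4.0.16 (TMM scaling, filterByExpr, quasi-likelihood test, Benjamini-Hochberg adjustment over all genes tested) in R 4.3.3. Males and females were compared only in classes of at least 30 nuclei in every library; the contrasts of subclasses had no such minimum. DESeq2 1.42.0, other scaling, no filter, classes from thinned nuclei and leaving out each library were alternatives, and leaving out bright nuclei was added after seeing the data. The steps were tested on simulated data. Shares of nuclei have exact (Clopper-Pearson) 95% intervals, and a count of 0 allows up to 3 counts.

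The 4 genes and all lists (18 processing and signalling genes, 12 neurosecretory genes, 6 neighbouring peptides, 4 limbic genes) were chosen with earlier results of these data known. Of the lists, at most 4 genes past the test were named per contrast, by smallest p, and other names were chosen after their values were seen. For likeness, genes needed a mean of at least 5 CPM. Results of some listed genes are not reported here.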

Additional observations from a re-analysis of the deposited data

Results flagged for a closer look

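The male over female difference of Avp was larger in Slc17 nuclei than in Gad nuclei by 2.41 on the log2 scale, tested as an interaction term by edgeR (95% interval 1.84 to 2.97, adjusted p = 8.5e-11). Within the classes the difference was 1.65 in Slc17 nuclei and -0.55 in Gad nuclei. Without the nuclei of 10 or more Avp or Oxt UMIs the term was 0.041, and without female 2 it was 0.45.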

How the results depend on the processing

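Over 209 alternative values of 21 member results, 157 kept their direction and side of the threshold, 38 kept the direction but lost the call, 5 gained a call and 9 changed sign. The cause was not tested.

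Without bright nuclei, Avp changed sign in Slc17 nuclei, both over the other classes (-0.21) and in males over females (-0.33), and in Tshz1 nuclei (-0.28), and the interaction of sex and class was 0.041. With classes from thinned nuclei, Oxt in Gad nuclei (0.21) and Avp in Drd2 nuclei (0.92) changed sign, and the interaction was 2.23 (adjusted p = 0.273 by edgeR). Those classes were far smaller. In male 1, Gad nuclei went from 3909 to 1000, Slc17 nuclei from 379 to 48 and Drd2 nuclei from 180 to 5. With DESeq2, calls were lost for Oxtr in Gad nuclei (0.91), Avp in Slc17 nuclei (1.21), Avp in Tshz1 (0.26), Drd1 (-1.09), Drd2 (-0.80) and OPC nuclei (0.68), and Avp in Slc17a6 over Slc17a7 nuclei (1.98). Without the 5% of nuclei with the most UMIs, Oxtr in Gad nuclei was 0.74.

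Leaving out each library in turn, the male over female difference in Gad nuclei ranged from -2.80 to 0.19 for Oxt, from -1.14 to 0.80 for Avp, from -0.18 to 1.28 for Avpr1a and from -0.44 to -0.05 for Oxtr. In Slc17 nuclei it ranged from -4.37 to -1.83 for Oxt and from 1.13 to 2.29 for Avp. Over classes, Oxtr in Gad nuclei ranged from 0.58 to 1.08, Avp in Slc17 nuclei from 0.83 to 2.00, Avp in Tshz1 nuclei from -0.21 to 1.20, Avp in Slc17a6 over Slc17a7 nuclei from 1.63 to 3.14 and the interaction from 0.45 to 3.51.

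The number of genes called between the sexes was 1 in Gad nuclei, against 880 with DESeq2 (100 up, 780 down), 3 with no filter, 0 with classes from thinned nuclei and 2 to 11102 with a library left out. In Slc17 nuclei it was 8, against 174 with DESeq2 (18 up, 156 down), 4 with thinned classes and 6 to 2414 with a library left out. The interaction called 135 genes, against 9 with DESeq2, 18 with thinned classes and 21 to 238 with a library left out. Among the 14 member tests in the other 10 classes, 0 were called, against 4 with no filter, 4 without female 1 and 6 without female 2.

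The labels do not say whether same-numbered libraries share more than a number. In Gad nuclei, the difference of male 1 from male 2 and that of female 1 from female 2 correlated at 0.117 over 18345 genes. That value cannot tell whether they do. With the replicate block, 4 genes were called in Gad nuclei, 37 in Slc17 nuclei and 2 of those 14 member tests, while Oxt (-1.50) and Avp (-0.26) in Gad nuclei stayed uncalled.

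Among nuclei of at least 2000 UMIs, thinned to 2000, the share of Gad nuclei with an Oxtr UMI was 0.154% and 0.314% in the males, against 0.198% and 0.185% in the females, and with an Avp UMI 2.00% and 1.62% in the males, against 1.29% and 3.74% in the females. At these depths an Oxtr or Avpr1a UMI is found in too few nuclei to rank the smaller classes. Some alternatives gave no value: Avpr1a, and Avp and Oxt in Slc17 nuclei, with thinned classes, Oxt in Slc17 nuclei and Avp in Slc17a6 over Slc17a7 nuclei without bright nuclei, and the Avp interaction with DESeq2.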
